A study of Rattus norvegicus with 20 samples.

Results

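Water exercise after a contusion of the spinal cord was compared with the same injury left unexercised, in the soleus muscle of Sprague-Dawley rats. The comparison used 12 of the 20 RNA sequencing libraries of the series, chosen by their labels. They were 4 from contused rats that swam (SWIM), 4 from those that walked in shallow water (SWW), and 4 from contused rats without exercise. Each exercise had equal weight, so that the effect of any exercise was the mean of the swimming and the walking group minus contusion alone. All 12 rats had a laminectomy and a 25 g-cm contusion at T2, and small cages from day 4 that restricted movement were shared by all groups of the series. Exercise began 2.5 weeks after injury and was given on 5 days a week for 10 weeks. Muscle was taken 13.5 weeks after injury in both exercise groups and 11.5 weeks after injury in the contusion group. Exercise and the 2 later weeks therefore cannot be told apart, and none of the 5 groups of the series was placed in water without exercise. The remaining 8 libraries came from uninjured rats, labelled 11.5 weeks, and from rats with a complete transection at T2, taken at 8.5 weeks. They entered the fit as groups of 4 and are given below as levels only.

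The soleus is a postural muscle of the lower hind limb made up mainly of slow, oxidative fibres, and it loses mass and shifts toward faster fibre types when it is unloaded or when its motor neurons fall silent. A contusion spares part of the descending tracts, so that some voluntary drive to the hind limb remains. Swimming moves the limb with body weight carried by the water, whereas walking in shallow water keeps contact with the ground and part of the load. Training of slow muscle is known for its effects on mitochondrial, fuel and matrix genes. In whole muscle, fewer cells of a type and less RNA per cell cannot be told apart. The deposited counts carry Ensembl identifiers without gene names, and the gene table used here paired 0 of the 24613 identifiers with a symbol. The pathway and cell type lists drawn up for this muscle were therefore not applied, the tissue label was not checked against fibre markers, and genes are described by identifier, direction, size and abundance.

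Total counts ran from 22394223 to 35986860 in the contusion, 21165832 to 30649862 in the swimming and 21445449 to 36604027 in the walking libraries. The labels number the libraries of a group as replicates and the design describes separate animals. On the first principal component of the 12 contused libraries, which held 28.4% of their variance, swimming library 2 lay at -77.9 and the other libraries lay between -14.5 and 25.2. Contusion libraries were between 11.5 and 18.1 on it, walking libraries between -14.5 and 25.2, and the other swimming libraries between -11.5 and 3.89. Walking overlapped with both other groups on this component.

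No gene passed the test of the mean of both exercises against contusion, a test that a change in 1 exercise alone can also pass. Of 13398 genes tested, 0 were called (0%) with an adjusted p below 0.05 (edgeR quasi-likelihood test, Benjamini-Hochberg adjustment), and the smallest adjusted p was 0.101. At an unadjusted p below 0.05 there were 1714 genes, 12.8% of those tested, of which 805 lay higher (6.01%) and 909 lower (6.78%) with exercise. Among these, 97 lay more than 2-fold higher and 42 more than 2-fold lower. The count of 0 held in 19 of 20 alternative edgeR fits. In the other, without swimming library 4, 1 gene was called. The Wald test of DESeq2 called 176 genes (1.31%), and voom with weights per library called 407 (3.04%). Both shares are of all genes tested, of which 3131 had no adjusted p with DESeq2.

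**Figure D1:**
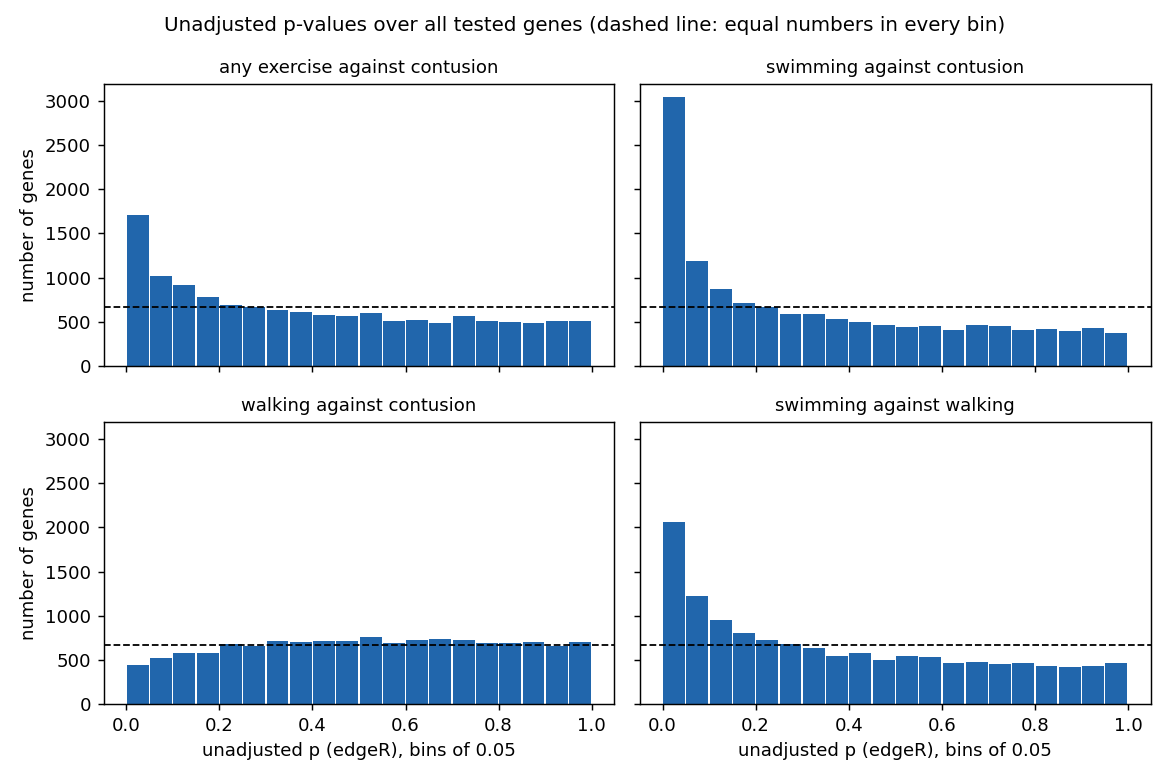
Number of genes (vertical axis) in each bin of 0.05 of the unadjusted edgeR p (horizontal axis) for 4 comparisons, over 13398 genes each; the dashed line marks equal numbers in every bin. The lowest bin holds 1714 genes for any exercise, 3042 for swimming, 439 for walking and 2066 for swimming against walking.

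The swimming arm held the larger differences. Against the same contusion libraries, swimming gave 307 higher and 303 lower genes (edgeR adjusted p below 0.05; 4.55% of genes tested). With libraries scaled by their totals only, this split became 293 higher and 18 lower. Walking gave 0 (0%), with 439 genes (3.28%) at an unadjusted p below 0.05 and 0 calls by DESeq2 and by voom. The 610 calls for swimming changed with the library left out. Leaving out contusion library 1, 2, 3 or 4 gave 1, 70, 511 or 52, and leaving out swimming library 1 or 2 gave 395 or 112. A smaller group also lowers the power of the test, and this was not separated from the part of each library. The typical size of a difference, as the median over genes without regard to sign, was 0.17 on the log2 scale for any exercise, 0.25 for swimming and 0.14 for walking. Both arms share their controls, so agreement between them is not counted as a result here, and the exercises were set against each other directly instead.

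In the direct comparison of swimming with walking, whose estimate leaves the contusion libraries out although they add to the fitted spread, 1 gene was called (0.00746% of genes tested) and 2066 genes (15.4%) had an unadjusted p below 0.05 with edgeR. DESeq2 called 145 genes (1.08%) and voom 315 (2.35%). The 1 gene was lower after swimming, and its p for any exercise ranked behind those of the lower genes named below. It stood at 3800 ± 614 CPM (counts relative to the scaled library size; SD, n = 4) after contusion, at 3517 ± 1006 after walking and at 1090 ± 301 after swimming. Its log2 difference was -1.69 (SE 0.25, edgeR adjusted p = 0.0156) between swimming and walking, and -0.11 (SE 0.24, edgeR adjusted p = 1.00) between walking and contusion. It was chosen after its values were seen. The number of calls was 0 without swimming library 1, 0 without walking library 2, 3 or 4, and 280 without walking library 1.

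DESeq2 and voom both called the same 163 genes for any exercise, 1.22% of genes tested. They are 92.6% of the calls of DESeq2 and 40.0% of those of voom. In edgeR's test these genes had adjusted p-values of 0.101 to 0.226. The 70 genes of this set that were higher with exercise had a median log2 difference of 0.75, with 1.04 after swimming and 0.43 after walking. The 93 lower genes had a median of -0.46, with -0.57 after swimming and -0.34 after walking. Differences over 2-fold were found in 11 of the higher and 2 of the lower genes. These sizes belong to genes picked for their difference, which raises them.

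Within this set of 163 genes the exercises were unequal. The difference, without regard to sign, was larger after swimming than after walking in 160 genes (98.2%), beside 69.2% of all genes tested. Swimming and walking differed at an unadjusted edgeR p below 0.05 in 92 of the 163 (56.4%), beside 15.4% of all genes tested. These were 49 of the 70 higher and 43 of the 93 lower genes. The set was picked on a mean that contains swimming, the arm with the calls, so these counts describe the set and support nothing about other genes. The size of the set changed when single libraries were left out, which also makes a group smaller. Leaving out contusion library 1, 2 or 4 gave 0, 32 or 12 genes. Without swimming library 1 it held 15 genes, and 76, 94 and 79 without walking library 1, 2 or 3. It was 149 without swimming library 3, 113 without swimming library 2, and between 164 and 216 without contusion library 3, swimming library 4 or walking library 4.

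Another reading of what both exercises share asks for all 8 exercise libraries to lie on the same side of all 4 contusion libraries. It is a filter on ranks and not a test. This was met by 48 genes above (0.358% of genes tested) and 122 genes below (0.911%). With the libraries in random order, a gene would meet it in a given direction with a probability of 0.00202. Genes can vary together, and the counts were not tested against this level. The 48 higher genes were less abundant, at a median of 5.45 CPM over the contused libraries, than the 122 lower genes at 28.2 CPM. Their median log2 differences were 0.67 and -0.41. After swimming the medians were 0.85 and -0.49, and after walking 0.51 and -0.33. A difference over 2-fold was found in 8 of the higher and 4 of the lower genes. An unadjusted edgeR p below 0.05 for any exercise was found in 44 of the 48 and 113 of the 122, beside 12.8% of all genes tested. DESeq2 called 15 of the 48 and 49 of the 122, beside 1.31% of all genes tested. The filter and these tests read the same difference in the same libraries. A small p is therefore largely built in, and these counts describe the set alone.

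The direct contrast of the exercises was also read for the genes without overlap. Over all genes tested, 15.4% had an unadjusted edgeR p below 0.05 between the exercises. Among the genes without overlap, such a p was found in 18 of 122 lower genes (14.8%) and in 13 of 48 higher genes (27.1%). The difference from contusion, without regard to sign, was larger after swimming than after walking in 112 of the lower genes (91.8%). The same held for 41 of the higher genes (85.4%), beside 69.2% of all genes tested. These genes too were picked with the swimming and walking libraries, and whether the shares differ was not tested. The number of genes without overlap was 170 in all, 105 when libraries were scaled by their totals only, 336, 497 and 284 when contusion library 2, 3 or 4 was left out, and 395 without walking library 4. With fewer libraries to clear, this number rises by construction.

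**Figure D2:**
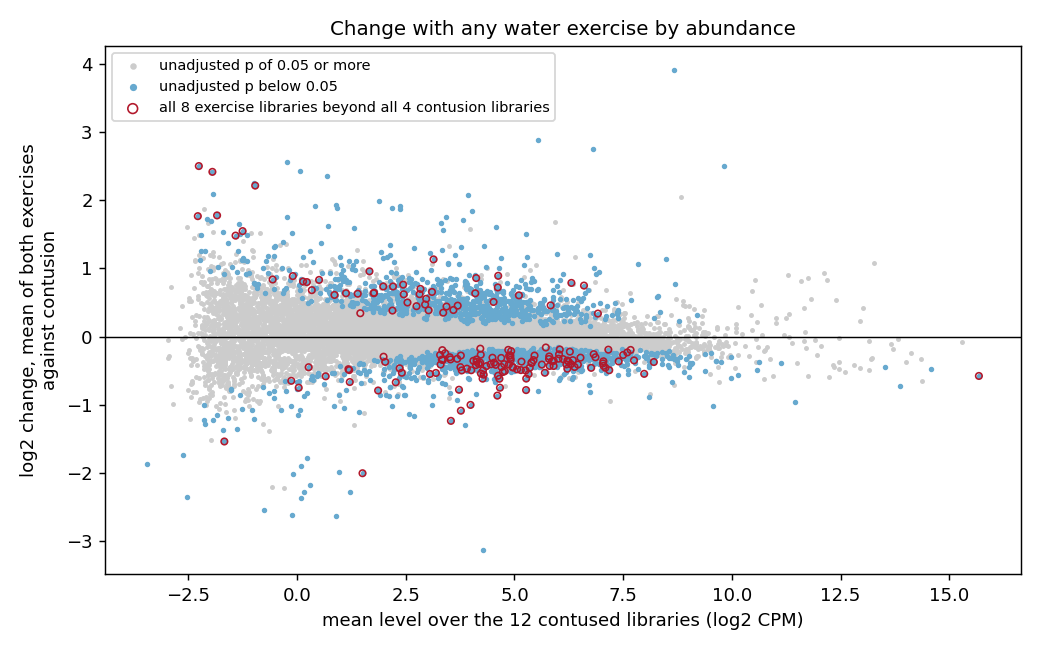
Log2 difference between the mean of both exercises and contusion (vertical axis) against the mean level in log2 CPM over the 12 contused libraries (horizontal axis), 1 point per gene; blue points have an unadjusted edgeR p below 0.05 and red rings mark genes whose 8 exercise libraries all lie beyond the 4 contusion libraries. The 122 rings below the line gather at higher levels than the 48 above it.

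The 4 identifiers described in full are the pair with the smallest unadjusted p in each direction. For any exercise none passed with edgeR, and all of them passed with DESeq2 and voom. Those tests read the same counts and are no separate support. Picking genes by p raises the sizes given below. Against contusion, swimming alone passed with edgeR for all 4, and walking alone for none. The lower pair lay below the contusion libraries in both exercise groups. In the higher pair swimming lay above walking.

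ENSRNOG00000056701 was the gene with the smallest p of all. In contusion libraries 1 to 4 it stood at 25.8, 22.7, 25.4 and 25.5 CPM. Swimming libraries held 16.7, 14.0, 15.8 and 16.8 CPM of it, and walking libraries 16.7, 17.0, 19.6 and 18.9 CPM. All 8 exercise libraries were below all 4 contusion libraries, and swimming and walking libraries overlapped. The log2 difference between any exercise and contusion was -0.56 (SE 0.09, 95% interval -0.75 to -0.36, edgeR adjusted p = 0.101), which passed with DESeq2 (adjusted p = 3.78e-04) and voom (adjusted p = 0.0111). The estimate was -0.65 (SE 0.11) for swimming, which passed (edgeR adjusted p = 0.0162). It was -0.46 (SE 0.11) for walking, which did not pass over all genes. The difference between the exercises was -0.19 with a 95% interval of -0.42 to 0.04. Uninjured libraries lay between 19.2 and 25.0 CPM, overlapping with contusion alone, and transection libraries between 28.7 and 36.3, above every contused library.

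ENSRNOG00000004292 followed with 31.7, 28.3, 31.1 and 34.7 CPM in contusion libraries 1 to 4. It stood at 19.9, 19.4, 17.9 and 21.4 CPM in the swimming libraries and at 23.3, 21.7, 25.7 and 20.4 CPM in the walking libraries. Again no exercise library reached the lowest contusion library, and the exercise groups overlapped. The log2 difference for any exercise was -0.57 (SE 0.11, 95% interval -0.80 to -0.35, edgeR adjusted p = 0.109; DESeq2 adjusted p = 2.68e-03). It was -0.68 (SE 0.13) for swimming, which passed (edgeR adjusted p = 0.0175), and -0.47 (SE 0.13) for walking, which did not. The exercises differed by -0.21 with an interval of -0.48 to 0.06. Transection libraries, at 28.5 to 32.6 CPM, overlapped with contusion alone, and uninjured libraries ranged from 17.6 to 28.4.

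ENSRNOG00000000495 had the smallest p among the higher genes. Its level was 7.79, 13.5, 12.0 and 11.1 CPM in contusion libraries 1 to 4. Swimming libraries held 23.7, 25.7, 25.9 and 22.5 CPM, and walking libraries 15.8, 15.2, 16.0 and 19.4 CPM. The 3 groups formed steps without overlap, with walking between contusion and swimming. For any exercise the log2 difference was 0.86 (SE 0.16, 95% interval 0.53 to 1.19, edgeR adjusted p = 0.109; DESeq2 adjusted p = 9.05e-04). Swimming alone gave 1.14 (SE 0.18) and passed (edgeR adjusted p = 0.0157). Walking gave 0.58 (SE 0.18, 95% interval 0.21 to 0.95) and did not pass over all genes (edgeR adjusted p = 1.00). Swimming lay above walking by 0.56 with an interval of 0.19 to 0.93, which did not pass over all genes (edgeR adjusted p = 0.202). Transection libraries were the lowest of the series for this gene, at 3.86 to 4.78 CPM, and uninjured libraries, at 9.77 to 19.4 CPM, overlapped with contusion and with walking.

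ENSRNOG00000017503 stood at 10.3, 12.1, 8.66 and 11.4 CPM in contusion libraries 1 to 4 and at 17.8, 20.7, 26.7 and 23.8 CPM in swimming libraries. Walking libraries held 15.4, 15.3, 13.5 and 10.4 CPM, so that walking library 4 lay within the range of contusion alone. Its log2 difference for any exercise was 0.72 (SE 0.14, 95% interval 0.42 to 1.01, edgeR adjusted p = 0.109; DESeq2 adjusted p = 2.41e-03). Swimming against contusion gave 1.07 (SE 0.16, edgeR adjusted p = 0.0110). Walking against contusion gave 0.36 (SE 0.16, 95% interval 0.03 to 0.70, edgeR adjusted p = 1.00). Swimming lay above walking by 0.70, with an interval of 0.37 to 1.03 and an edgeR adjusted p of 0.163. Uninjured libraries, at 13.5 to 17.8 CPM, were above all contusion libraries, and transection libraries ranged from 7.28 to 10.0.

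**Figure D3:**
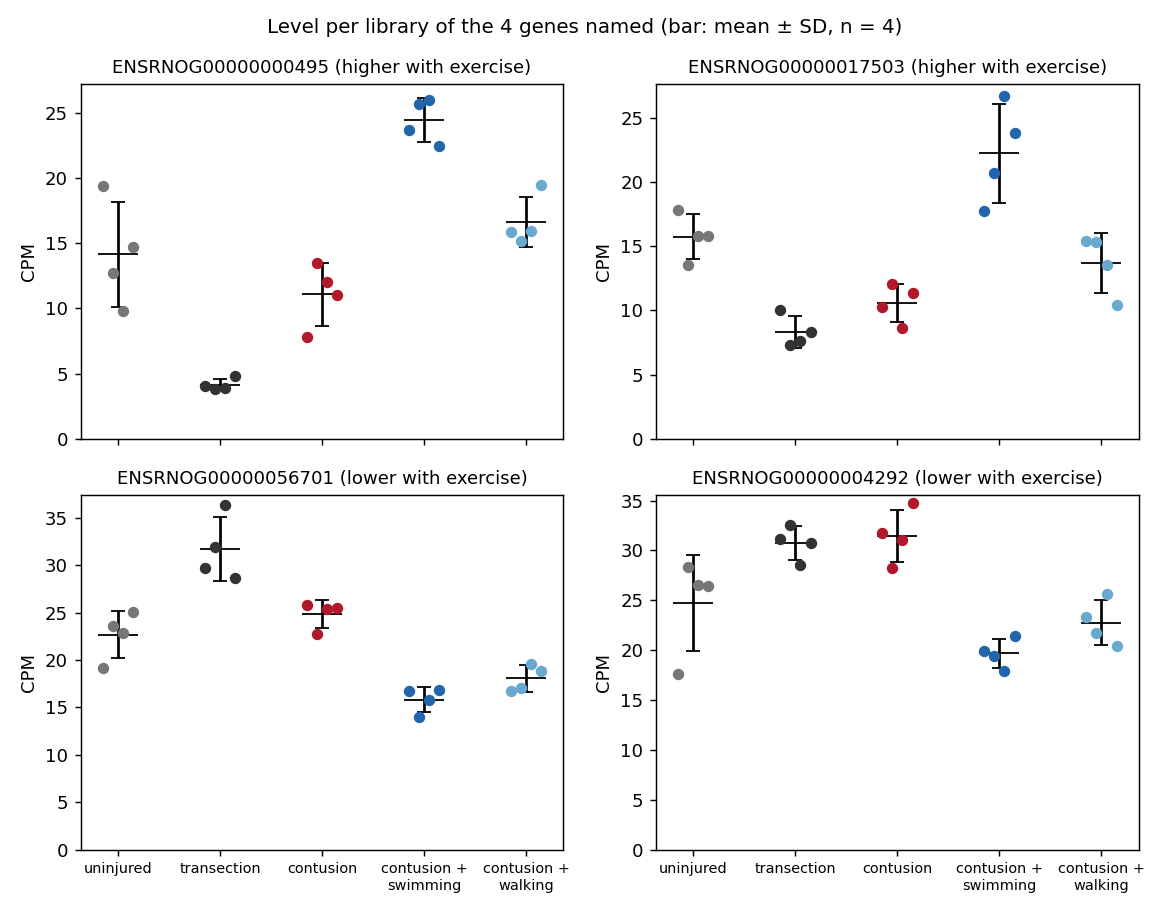
Level in CPM (vertical axis, from 0) of the 4 named genes in each of the 20 libraries by group, with mean ± SD (n = 4) as bars. In the lower panels the swimming and walking libraries lie together below contusion; in the upper panels the mean of walking lies between those of contusion and swimming, with walking library 4 inside the contusion range for ENSRNOG00000017503.

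The ranking went on in the same way. The 6 lower genes with the smallest p had log2 differences of -2.00 to -0.52 for any exercise and edgeR adjusted p-values of 0.101 to 0.109, and all 6 lacked overlap. Between the exercises 1 of these 6 differed at an unadjusted p below 0.05. The 6 higher genes with the smallest p had log2 differences of 0.61 to 0.86 and edgeR adjusted p-values of 0.109 to 0.131, and 4 of them lacked overlap. All 6 of these differed between swimming and walking at an unadjusted p below 0.05. Over all genes tested this share was 15.4%. Both lists were ranked on a mean that contains swimming and walking, so these counts describe the listed genes alone.

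The gene with the third smallest p among the lower genes had the largest log2 difference of these 12. It stood at 6.06, 3.39, 5.14 and 7.44 CPM in contusion libraries 1 to 4, at 0.791, 0.265, 0.469 and 1.84 CPM in swimming libraries and at 1.33, 3.36, 1.93 and 2.02 CPM in walking libraries. Walking library 2 lay just under contusion library 2, so that no exercise library overlapped with contusion, while swimming library 4 lay above walking library 1. The log2 difference for any exercise was -2.00 (SE 0.38, 95% interval -2.79 to -1.21, edgeR adjusted p = 0.109; DESeq2 adjusted p = 1.02e-03). It was -2.65 (SE 0.49) for swimming and -1.35 (SE 0.46) for walking. The exercises differed by -1.29 with an interval of -2.31 to -0.27, and this was the 1 of the 6 lower genes that differed between them. It was also the 1 gene called without swimming library 4 (edgeR adjusted p = 0.0378). Uninjured muscle held 5.67 ± 1.48 CPM and transected muscle 1.90 ± 1.15 CPM (SD, n = 4 each), the former overlapping with contusion alone and the latter lying below it.

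The most abundant gene of the contused libraries, picked after its values were seen, also lay lower in both exercise groups. It took 6.57 ± 1.14% of all counts after contusion, 4.49 ± 0.548% after swimming and 5.24 ± 0.218% after walking (SD, n = 4 each). On scaled CPM all 8 exercise libraries were below the contusion libraries, while on the plain share of counts contusion library 3, at 5.26%, lay below walking library 1, at 5.56%. The log2 difference for any exercise was -0.57 (SE 0.17, 95% interval -0.93 to -0.22, edgeR adjusted p = 0.194; DESeq2 adjusted p = 0.0112). It was -0.74 (95% interval -1.17 to -0.32) for swimming and -0.41 (95% interval -0.83 to 0.01) for walking. The gene held 5.64 ± 0.657% of counts in uninjured and 7.58 ± 0.731% in transected muscle (SD, n = 4 each).

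Direction followed abundance in the mean of both exercises. With the genes divided into 10 classes of nearly equal size by level, the genes of lowest level (class 1) had a median log2 difference of 0.10 and those of highest level (class 10) of -0.10. Swimming ran from 0.15 to -0.17 and walking from 0.06 to -0.03. At an unadjusted edgeR p below 0.05, class 10 held 42 higher and 193 lower genes and class 4 held 107 higher and 56 lower genes. The signs were relative to the other genes. When libraries were scaled by their totals only, the median of all genes was 0.14 in place of 0.01, the medians of classes 1 and 10 became 0.22 and 0.03, and the genes at an unadjusted p below 0.05 divided into 1527 higher and 215 lower.

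Single libraries followed this pattern in part. In class 10 the median deviation from the mean of the 12 libraries was 0.02 to 0.12 in contusion and -0.13 to -0.06 in swimming libraries, with no overlap, but -0.09 to 0.16 in walking libraries, where libraries 2, 3 and 4 lay above the mean and library 4 was the highest of all. In class 1 the contusion libraries deviated by -0.06 to 0.01, those of swimming by 0.01 to 0.18 and those of walking by -0.03 to 0.07, and both exercise groups overlapped with contusion, swimming through library 2. In contusion libraries 49.1% of counts fell on the 50 top genes of the library, and in the exercise groups 46.6%, a difference of -2.48 percentage points that did not pass (exact two-sided permutation test, 8 against 4 libraries, p = 0.0909). It passed without contusion library 2 (-3.45 points, exact permutation p = 0.0364) and without swimming library 2 (-3.08 points, exact permutation p = 0.0391). For the 10 most abundant genes the shares were 27.4% and 24.1%, a difference of -3.28 points (exact permutation p = 0.0162), and for the 200 most abundant they were 61.8% and 59.4%, a difference of -2.38 points that did not pass (exact permutation p = 0.0788). The part of this concentration in the direction of single genes was not tested.

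**Figure D4:**
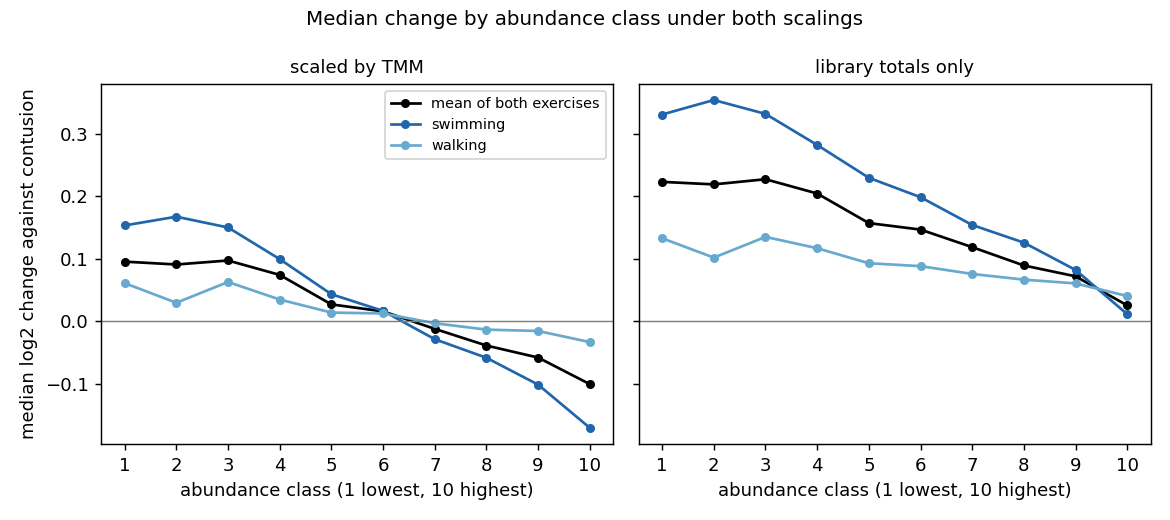
Median log2 difference against contusion (vertical axis) in 10 abundance classes (horizontal axis) for the mean of both exercises, swimming and walking, with scaling factors (left) and by library totals only (right). The lines cross 0 on the left and stay above it on the right.

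The precision of the mean over both exercises was read from the intervals of the edgeR fit, which do not bound the change in either exercise alone. The median SE of a log2 difference was 0.18 for any exercise and 0.21 for walking. For 80.3% of genes the approximate 95% interval for any exercise lay within a 2-fold change in either direction, and for 52.8% within 1.5-fold. For walking alone 79.0% of genes lay within 2-fold. The interval lay wholly beyond 2-fold in 8 genes for any exercise.

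Counts for any exercise were lower without most single contusion libraries. Leaving out a library also makes its group smaller, which lowers the power of the test, and these were not separated. The 1714 genes at an unadjusted p below 0.05 became 1125 without contusion library 1, 1305 without library 2, 1806 without library 3 and 1339 without library 4. Without a swimming library they numbered 1598 to 1822, and without a walking library 1473 to 1892. Leaving out swimming library 2, the library far out on the first component, gave 1660 genes at this limit and 0 called.

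**Figure D5:**
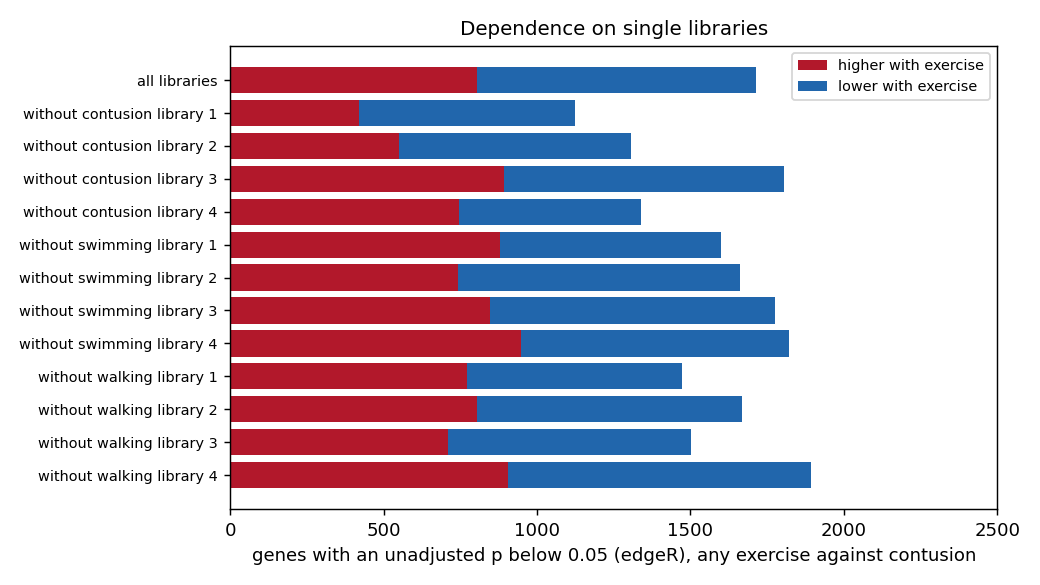
Number of genes at an unadjusted edgeR p below 0.05 for any exercise (horizontal axis), divided into higher and lower, with all libraries and with each contused library left out. The bar without contusion library 1 is the shortest at 1125 genes, and that without walking library 4 the longest at 1892.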

How the data were processed

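Poly-A RNA of the soleus was made into stranded libraries, per the labels' protocols. The authors deposited whole-number counts per Ensembl gene, not normalised; FastQC 0.10.1, HTSeq and build rn6 are named in the submitters' processing notes, while the aligner, annotation and strand setting are not given in the sources used here. Overlapping or near-identical genes may share counts. The libraries of the comparison were chosen by their labels, but with earlier results of these data known. The same holds for the lists, which were not applied. All 20 libraries entered 1 fit with a mean per group in edgeR 4.0.16 (R 4.3.3): trimmed mean of M values, filterByExpr at a minimum count of 10, quasi-likelihood F test, Benjamini-Hochberg adjustment over 13398 genes, threshold 0.05, prior count 0.125. Contrasts were the mean of swimming and walking minus contusion, each exercise minus contusion, and swimming minus walking. The SE was the log2 difference divided by the square root of F. Alternatives were the Wald test of DESeq2 1.42.0 (3131 genes without an adjusted p), voom with sample weights in limma 3.58.1, other scalings and filters, the 12 contused libraries alone, a replicate block, and libraries left out in turn; robust dispersions, and the alternatives for the counts at an unadjusted p, without overlap and by DESeq2 with voom, were added after seeing the data. Named genes, since 0 were called, were the 2 higher and 2 lower with the smallest unadjusted p, a mean of at least 1 CPM and the same sign in both exercises. Within groups, the chi-square per degree of freedom between 2 libraries was 26.5 to 517, so none was a copy. Scripts were tested on simulated data. Figures used matplotlib 3.10.9.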

Additional observations from a re-analysis of the deposited data

Results flagged for a closer look

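Of 38 sets of 4 libraries examined, 3 had a value set apart from the rest; chance gives about 1.9. Walking library 4 held 36604027 counts, the next highest of its group 23665744. Swimming library 3 lay at -48.2 on the second component of the contused libraries, the next lowest of its group at -2.55. ENSRNOG00000056701 stood at 22.7 CPM in contusion library 2, the next lowest of its group at 25.4. In the test of swimming against walking, 1 gene passed.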

How the results depend on the processing

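Over 22 alternatives, the 0 calls for any exercise became 176 with DESeq2 and 407 with voom, and ran from 0 to 1 with a library left out. The calls for swimming were 311 with library totals (293 higher, 18 lower), 353 without the low-count filter, 334 with the replicate block, 1211 with DESeq2 and 1755 with voom, and ran from 1 to 641 with a library left out. Those for walking were 0 in every alternative run. Swimming against walking gave 0 with the 12 contused libraries alone, 0 without transection library 3 and swimming library 2, 145 with DESeq2 and 315 with voom, and 0 to 280 with a library left out. Genes at an unadjusted p below 0.05 for any exercise numbered 2821 with voom and 1125 to 1892 with a library left out. The difference in the share of counts was -3.28 points for the 10 and -2.38 for the 200 most abundant genes and ran from -3.45 to -1.76 with a library left out. The cause was not tested for any of these. For any exercise, the 4 named genes kept their direction in all alternatives, passed with DESeq2 and voom alone, and had edgeR adjusted p-values of 0.0613 to 0.382. Replicate numbers were not taken as pairs: 4 of 12 same-numbered pairs of libraries had deviations correlated above 0.1 (from -0.14 to 0.43), and the block left 0 calls for any exercise. Of the libraries left out, contusion libraries 1, 2 and 4 lowered the calls for swimming most. With 4 libraries a group, intervals within 1.5-fold were reached for 52.8% of genes.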
